A study of Mus musculus with 8 samples.

Results

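The acute phase protein genes described here are the 10 genes Saa1, Saa2, Orm1, Orm2, Hp, Hpx, Lcn2, Apcs, Crp and Cp, chosen by name. All 10 were listed in both deposited tables of liver RNA-seq, among 13774 genes in the table for the Ube3a transgene and 11773 genes in the table for the Ube3a heterozygote. Each table held 2 mutant libraries and 2 wild-type (WT) libraries of its own. The Ube3a TG mice were homozygous for a transgene that overexpresses Ube3a. The Ube3a het mice carried 1 knockout and 1 WT allele of the gene, and the WT mice carried no such change. All 4 groups shared the C57BL/6 background and 8 weeks on a diet with 42% fat, so no group on ordinary chow was analysed here. The promoter and cell type that drive the transgene, the age and sex of the mice, and whether each library is a separate animal are not stated in the labels, so p-values measure only the spread between these libraries.

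The acute phase response is the change in liver secretion that follows infection, injury or sterile inflammation. Interleukin-6 acts on hepatocytes through the receptor subunit gp130 and STAT3, interleukin-1 and tumour necrosis factor act through NF-kappaB, and C/EBP factors act beside both. Serum amyloid A genes are the most inducible hepatic targets in mice, haptoglobin and hemopexin are abundant even in healthy liver, and C-reactive protein responds only modestly in mice, where serum amyloid P is the responsive pentraxin.

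UBE3A is a ubiquitin ligase, and its transcript checked the labels. Ube3a stood at 5991 and 5938 normalised reads in TG livers, against 1187 and 1359 in their WT livers. In het livers it stood at 301 and 279.5 normalised reads, against 369 and 409 in their WT livers. Recovered library sizes were 46940845 and 47928229 reads for TG, against 45672650 and 44193275 for its WT pair, and 17748088 and 13171145 reads for het, against 15530192 and 14581137 for its WT pair. Hepatocyte markers were listed in full, 12 of 12 in both tables, and albumin alone took 5.79% to 7.94% of the reads of each library. Values below are read counts that the authors divided by a factor for each library within each table, called normalised reads. Levels are not compared between tables.

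The promoters of 4 members are shown first. Saa1 and Saa2 are a closely related pair, with transcripts 87.3% identical and a wide spread between libraries. Lcn2 and Orm2 were the other members whose TG libraries both lay below both WT libraries. Each runs from 250 bases before to 50 bases after the RefSeq start of the gene (GRCm38.p6), written 5′ to 3′ on the gene's own strand. Capitals mark the motif matches described after the sequences. The windows are Saa1 at chr7:46742931-46743230 on the minus strand, Saa2 at chr7:46751583-46751882 on the plus strand, Lcn2 at chr2:32387690-32387989 on the minus strand and Orm2 at chr4:63362199-63362498 on the plus strand.
Saa1: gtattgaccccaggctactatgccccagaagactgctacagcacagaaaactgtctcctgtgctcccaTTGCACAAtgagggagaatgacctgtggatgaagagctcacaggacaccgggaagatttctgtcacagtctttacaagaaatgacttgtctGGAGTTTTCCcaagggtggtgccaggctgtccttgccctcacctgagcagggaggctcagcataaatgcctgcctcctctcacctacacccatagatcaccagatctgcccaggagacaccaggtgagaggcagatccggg
Saa2: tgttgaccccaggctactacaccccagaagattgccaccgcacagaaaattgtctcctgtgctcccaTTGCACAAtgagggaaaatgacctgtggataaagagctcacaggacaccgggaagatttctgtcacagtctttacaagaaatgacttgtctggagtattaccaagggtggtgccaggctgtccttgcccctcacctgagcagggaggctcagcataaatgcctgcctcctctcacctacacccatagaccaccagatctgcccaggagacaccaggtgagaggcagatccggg
Lcn2: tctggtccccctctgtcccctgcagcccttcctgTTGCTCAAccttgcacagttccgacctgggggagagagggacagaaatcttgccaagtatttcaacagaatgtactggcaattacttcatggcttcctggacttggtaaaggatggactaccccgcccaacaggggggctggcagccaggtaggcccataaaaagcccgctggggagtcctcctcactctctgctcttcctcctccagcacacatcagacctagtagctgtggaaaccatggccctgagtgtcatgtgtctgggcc
Orm2: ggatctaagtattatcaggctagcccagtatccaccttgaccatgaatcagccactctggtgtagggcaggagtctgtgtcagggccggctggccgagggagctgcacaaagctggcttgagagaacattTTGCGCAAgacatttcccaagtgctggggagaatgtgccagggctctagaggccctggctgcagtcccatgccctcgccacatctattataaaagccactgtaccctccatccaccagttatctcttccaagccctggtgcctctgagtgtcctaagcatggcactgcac

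A set of 3 motifs was searched on both strands, and no matches of different motifs overlapped. The C/EBP motif TTGCNNAA was present in the windows of 6 of the 8 members with a RefSeq promoter sequence here (Saa1, Saa2, Orm2, Hpx, Lcn2 and Cp), against 10.8% of all 32851 promoter windows. The NF-kappaB motif, GG and TTTCC with any 3 bases between them, was present only in that of Saa1, against 5.48% of all windows. The STAT motif TTCNNNGAA was present only in that of Apcs, against 8.3% of all windows, and none of the 3 motifs was found in the Crp window. Cp has windows at a pair of starts, and its match lies in 1 of them. Members are thus counted by gene, while the background share is counted by window. These matches describe letters and not bound sites. The Saa1 and Saa2 windows shared 287 of 301 aligned bases (95.3%), and carried the C/EBP match in the same 8 letters, TTGCACAA. Orm1 and Hp were not matched to a promoter.

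Levels of the 10 genes spanned a wide range when set on the RPKM scale, that is by transcript length and by the total of listed reads of each library. Hpx, which encodes the haem scavenger hemopexin, was the most abundant member, with a mean of 2430 RPKM over the 4 libraries of the TG table. Hp and Orm1 followed, at 1400 and 736 RPKM, with no overlap between these 3 genes in that table. Cp and Crp, at 251 and 196, overlapped each other across libraries, as did Apcs (104), Saa1 (87.4), Orm2 (47.7) and Saa2 (44.2) taken from one gene to the next. Lcn2 was the least abundant, at 14.3 RPKM, and its highest library (27.0) overlapped the lowest of Saa2 (26.2). In the het table the order began with Hpx (2890), Hp (2000), Orm1 (862), Cp (228) and Crp (220) and again ended with Lcn2 (31.2), with Saa1 (190) and Saa2 (104) above Apcs (90.0) and Orm2 (60.1).

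**Figure D1:**
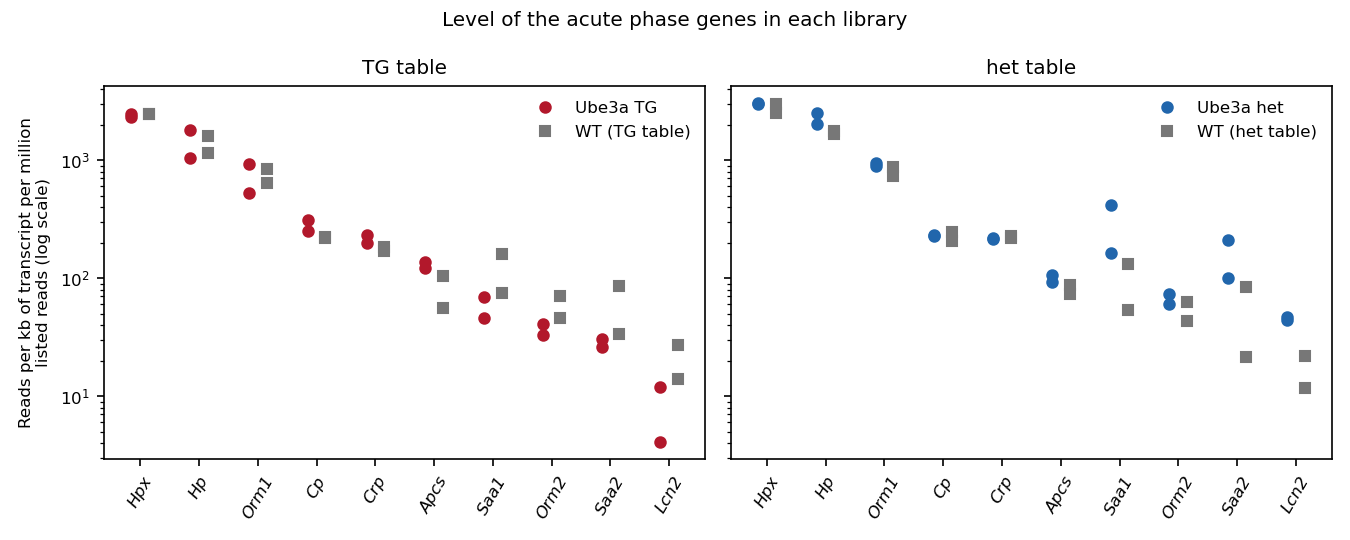
Level of each acute phase gene in every library, in RPKM over the listed reads on a log axis, with the TG table on the left and the het table on the right. Circles are the 2 mutant libraries and squares the 2 WT libraries of the same table. Hpx, Hp and Orm1 lie at the top, Hpx with little spread, and Saa1, Saa2 and Lcn2 at the lower end have the widest distance between libraries.

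The serum amyloid A genes, Saa1 and Saa2, encode small apolipoproteins of high-density lipoprotein that surge in inflammation. Both lay lower in TG livers and higher in het livers than in the matching WT livers, but the replicates were far apart. Saa1 (ENSMUSG00000074115, chr7:46740497-46742980) stood at 1281.5 and 2011 normalised reads in TG livers, against 4468 and 2014 in WT livers. The second TG and the second WT library were almost level, so the groups were separated by a margin of a few reads. The means were 1646 ± 516 in TG and 3241 ± 1740 in WT (SD, n = 2 each), a log2 difference of −0.90 (SE 0.47, 95% interval −2.19 to 0.39, limma adjusted p = 0.614). Saa2 (ENSMUSG00000057465, chr7:46751790-46754313) gave 781 and 953 normalised reads in TG livers, against 2576 and 975 in WT livers, with a log2 difference of −0.88 (SE 0.52, limma adjusted p = 0.646). Here too the first WT library alone set the WT mean apart, and the second WT library lay just above the TG libraries. Without the first WT library the log2 difference was −0.33 for Saa1 and −0.18 for Saa2, and without the second it was −1.48 and −1.58.

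In het livers Saa1 stood at 3855 and 1503 normalised reads, against 491 and 1190.3 in their WT livers. The mean was 3.19 times that of WT, with a log2 difference of 1.65 (SE 0.83, 95% interval −1.32 to 4.63, limma adjusted p = 0.521). Saa2 stood at 2087 and 987 normalised reads in het livers, against 214 and 812 in WT livers, a log2 difference of 1.78 (SE 0.99, limma adjusted p = 0.551). For both genes the first het library was the highest and the first WT library the lowest, while the second library of each group lay close together. Neither difference was larger than the spread between replicates by this test. Leaving out 1 library moved the log2 difference between 0.97 (without the first het library) and 2.33 (without the second) for Saa1, and between 0.82 (without the first WT library) and 2.74 (without the second) for Saa2.

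The proportion of the pair varied less than its level, which spanned several-fold between libraries. The Saa2 to Saa1 ratio of normalised reads was 0.609 and 0.474 in TG livers, against 0.577 and 0.484 in WT livers. In het livers it was 0.541 and 0.656, against 0.435 and 0.682 in WT livers, so the groups overlapped in both tables. Reads of the pair may be partly exchanged, since 31.5% of the distinct 50-base words of Saa1 transcripts and 30.0% of those of Saa2 also occur in another gene, almost all of them in the partner. These words, 2519 for Saa1 and 2616 for Saa2, come from all annotated transcripts, while the principal transcripts span only 0.609 and 0.652 kb. The share within the principal transcripts alone was not computed. How the authors' counting treated such reads is not stated in the labels, so the split between the genes is uncertain.

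Lcn2 (ENSMUSG00000026822, chr2:32384633-32388252) encodes lipocalin-2, which binds bacterial siderophores and is made by stressed hepatocytes and also by neutrophils and macrophages. It stood at 653 and 619 normalised reads in het livers, against 163 and 297 in WT livers. The het libraries were within 1.06-fold of each other and both lay far above the higher WT library. The means were 636 ± 24.4 in het and 230.1 ± 95.1 in WT (SD, n = 2 each), a 2.76-fold ratio and a log2 difference of 1.53 (SE 0.32, 95% interval 0.62 to 2.44). The limma adjusted p over all genes of the table was 0.174, and edgeR's quasi-likelihood test on the recovered reads gave an adjusted p of 0.161, so neither called it. DESeq2 on the same reads called it higher, with a log2 difference of 1.47 and an adjusted p of 8.37e-06. The log2 difference was 1.09 without the first WT library and 1.96 without the second. Without the first or the second het library it was 1.49 and 1.57. Each of these fits leaves 1 library in a group, so a p from it would not measure the spread of that group. With all 8 libraries fitted together the limma adjusted p was 0.52.

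In TG livers Lcn2 stood at 171 and 526 normalised reads, against 1128 and 571 in WT livers. Both TG libraries lay below both WT libraries, but the second of each group differed little and the TG libraries themselves were 3.08-fold apart. The log2 difference was −1.42 (SE 0.69, 95% interval −3.36 to 0.52, limma adjusted p = 0.602), not larger than the spread between replicates. It was −0.61 without the first TG library, −2.23 without the second TG library and −0.93 without the first WT library. At least 167 reads lay behind every Lcn2 value in both tables, so the spread is wider than counting error alone. No 50-base word of its transcripts occurs in another gene.

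**Figure D2:**
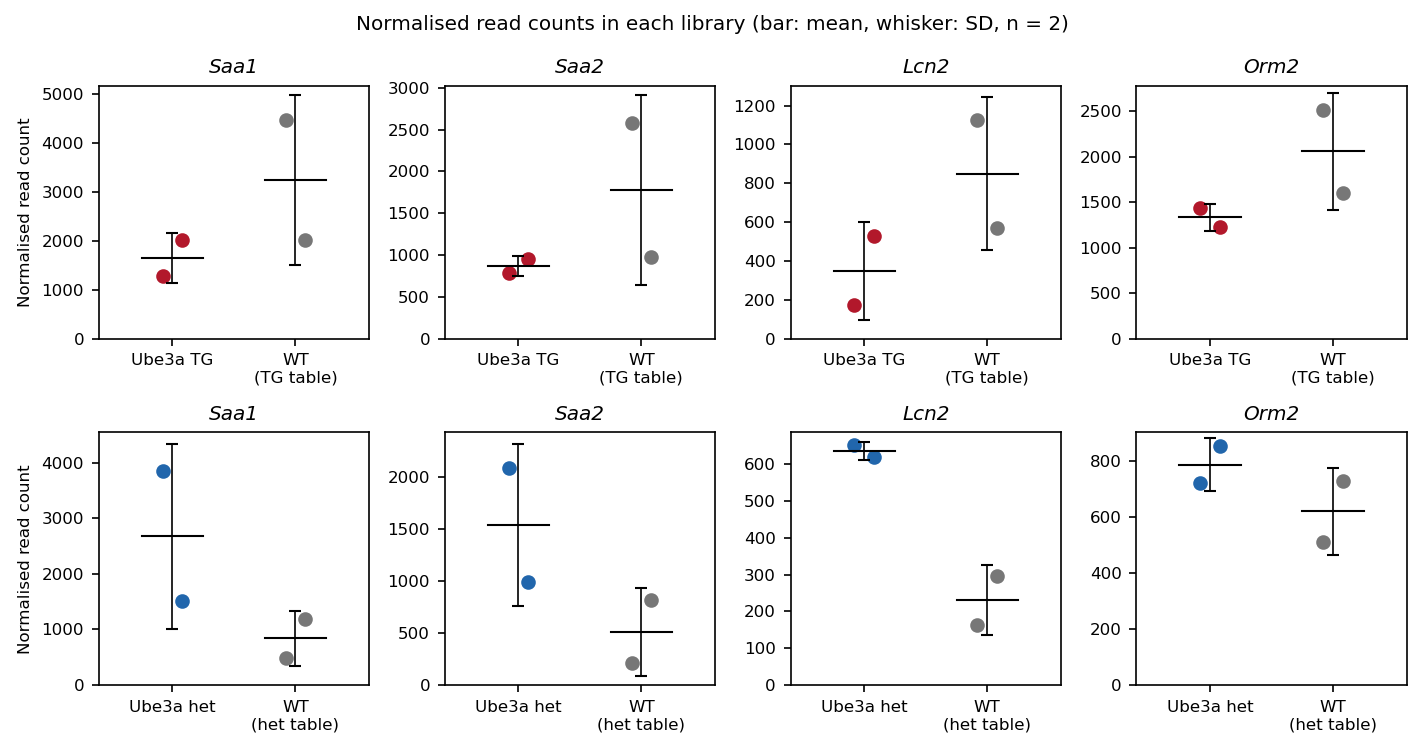
Normalised reads of Saa1, Saa2, Lcn2 and Orm2 in each library, with the TG table above and the het table below and the mutant left of its WT pair in every panel. Points are libraries, horizontal bars are means and whiskers are SD (n = 2). The 2 het libraries of Lcn2 lie at 653 and 619, apart from the WT libraries at 163 and 297, while the second TG and WT libraries of Saa1 nearly coincide at 2011 and 2014.

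Orm1 and Orm2 encode alpha-1-acid glycoproteins, plasma proteins that bind drugs and dampen inflammation. The abundant gene of the pair, Orm1 (ENSMUSG00000039196, chr4:63344560-63348163), overlapped WT in TG livers, while the less abundant Orm2 (ENSMUSG00000061540, chr4:63362449-63365878) did not. Orm1 stood at 33058 and 19533 normalised reads in TG livers, against 29969 and 22209 in WT livers, a log2 difference of −0.02 (limma adjusted p = 0.985). Orm2 stood at 1436.5 and 1227 normalised reads in TG livers, against 2514 and 1602.5 in WT livers. Both TG libraries were below both WT libraries, with a log2 difference of −0.60 (SE 0.24, 95% interval −1.22 to 0.03, limma adjusted p = 0.555). That difference was −0.27 without the first WT library and −0.92 without the second.

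In het livers Orm1 stood at 11220 and 10505 normalised reads, against 8582 and 10133 in WT livers, and the groups did not overlap (log2 difference 0.22, limma adjusted p = 0.468). Orm2 stood at 721 and 855 normalised reads in het livers, against 512 and 731 in WT livers, and the groups overlapped (0.36, limma adjusted p = 0.45), with a log2 difference of 0.10 without the first WT library and 0.62 without the second. The Orm2 to Orm1 ratio was 0.0435 and 0.0628 in TG livers, against 0.0839 and 0.0722 in WT livers, with both TG libraries lower. In het livers that ratio was 0.0643 and 0.0814, against 0.0597 and 0.0721 in WT livers, with overlap. The Orm transcripts are 91.0% identical, and 20.4% of the 50-base words of Orm1 and 22.7% of those of Orm2 are shared with another gene. Each Orm gene has 726 such words for a principal transcript of 0.775 kb, so these shares are not comparable with those of the Saa genes. The split of reads between the pair is uncertain for the same reason as for the Saa genes.

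Haptoglobin, encoded by Hp (ENSMUSG00000031722, chr8:109575128-109579172), captures free haemoglobin. Hp stood at 41350 and 51525 normalised reads in het livers, against 34263 and 35686 in WT livers. Both het libraries were higher, with a ratio of means of 1.33 and a log2 difference of 0.40 (SE 0.15, 95% interval 0.07 to 0.73, limma adjusted p = 0.257). In TG livers Hp stood at 64353 and 116850 normalised reads, against 70067 and 95632 in WT livers, so the TG libraries lay on either side of the WT pair (0.08, limma adjusted p = 0.953).

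Hemopexin, encoded by Hpx (ENSMUSG00000030895, chr7:105591613-105600137), carries free haem back to the liver. Hpx was the steadiest member in the TG table, with 159420 and 175280 normalised reads in TG livers, against 168820 and 165640 in WT livers. The ratio of means there was 1.0, and the groups overlapped (95% interval of the log2 difference −0.57 to 0.57). In het livers it stood at 70017 and 68047 normalised reads, against 57026 and 66751 in WT livers, with both het libraries just above WT (0.16, limma adjusted p = 0.632).

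Ceruloplasmin, encoded by Cp (ENSMUSG00000003617, chr3:19957054-20009145), is the copper-binding ferroxidase of plasma. Cp stood at 45993 and 60633 normalised reads in TG livers, against 40786 and 39594 in WT livers. Both TG libraries were higher, with a log2 difference of 0.39 (SE 0.22, 95% interval −0.16 to 0.94, limma adjusted p = 0.616). In het livers Cp stood at 13949 and 14267 normalised reads, between the 15088 and 12334 of the WT livers (0.05, limma adjusted p = 0.901). Cp overlaps Hps3 on the genome, and 0.618% of its 50-base words are shared with that gene.

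The pentraxins are ring-shaped pattern-recognition proteins, represented by Apcs for serum amyloid P and Crp for C-reactive protein. Apcs (ENSMUSG00000026542, chr1:172893961-172895041) was the only member whose mutant libraries lay above WT without overlap in both tables. Of all genes 21.8% did so in TG livers and 24.3% in het livers, and the share that did so in both was not counted. It stood at 6067 and 5636 normalised reads in TG livers, against 4592 and 2443 in WT livers, a log2 difference of 0.80 (SE 0.32, 95% interval −0.03 to 1.64, limma adjusted p = 0.555). Without the first WT library that difference was 1.26, and without the second it was 0.35. In het livers Apcs stood at 1575 and 1365 normalised reads, against 1295 and 1060.1 in WT livers (0.32, SE 0.12, limma adjusted p = 0.285). The 2 WT libraries of the TG table differed 1.88-fold for this gene, more than the TG libraries, which differed 1.08-fold.

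Crp (ENSMUSG00000037942, chr1:172698055-172833031) stood at 15477 and 18854 normalised reads in TG livers, against 13226 and 13800 in WT livers. Both TG libraries were higher, with a log2 difference of 0.34 (SE 0.17, 95% interval −0.10 to 0.78, limma adjusted p = 0.601). In het livers Crp stood at 5563 and 5621 normalised reads, within the 5878 and 5503 of the WT livers (−0.02, 95% interval −0.27 to 0.22, limma adjusted p = 0.942). The gene model overlaps the predicted gene Gm38051.

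Counted together, 0 of the 10 genes passed the limma test in TG livers, where 0.0% of all 13774 genes did. At an unadjusted p under 0.05 limma selected none of the 10, and 710 genes higher (5.15%) and 546 lower (3.96%) in the whole table. DESeq2 called 188 genes of that table (1.36%) and edgeR 0, and none of the 10 was among them. In het livers limma called 169 genes (1.44%), edgeR 182 (1.55%) and DESeq2 289 (2.45%), and the only member called by any of them was Lcn2, by DESeq2. At an unadjusted p under 0.05 limma selected 3 members in het livers, Lcn2, Hp and Apcs, all higher, beside 1010 genes higher (8.58%) and 719 lower (6.11%) in the whole table.

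By position of the libraries, 3 members lay above WT without overlap in TG livers (Apcs, Crp and Cp), where 21.8% of all genes did. Another 4 lay below WT without overlap (Saa1, Saa2, Orm2 and Lcn2), where 21.6% of all genes did. In het livers 7 members lay above WT without overlap, where 24.3% of all genes did, and 0 lay below, where 23.7% of all genes did. The median log2 difference of the 10 genes was −0.01 in TG livers and 0.34 in het livers, beside 0.001 and −0.001 over all genes of those tables. With 2 libraries a group few orders of the libraries are possible, and the background shares show how often genes separate.

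**Figure D3:**
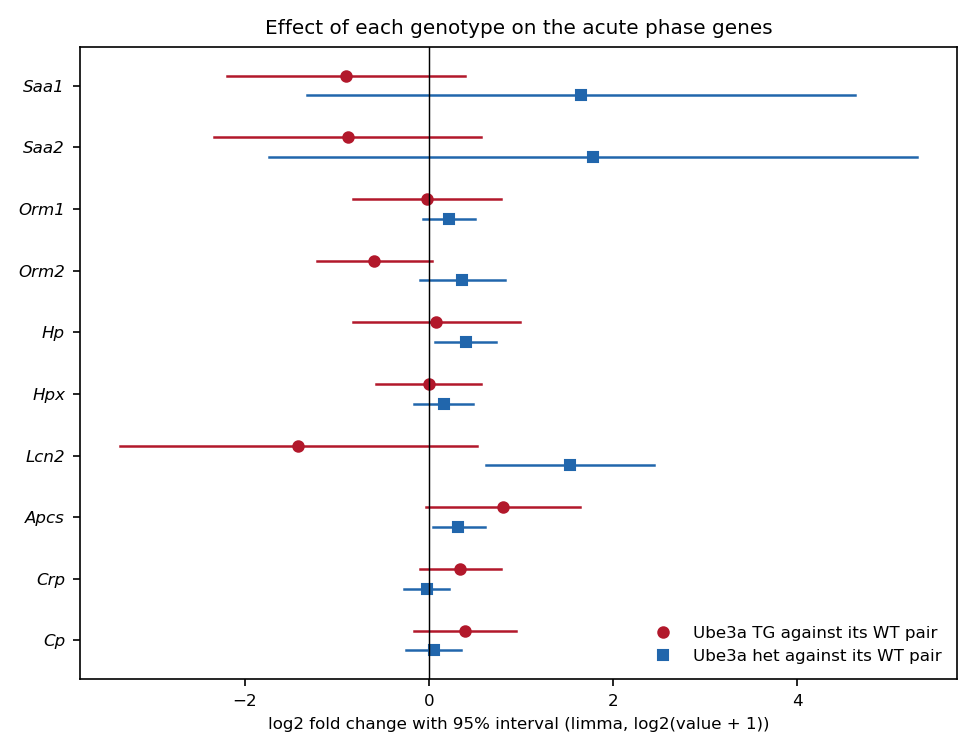
Log2 difference between mutant and WT for each acute phase gene on the log2(value + 1) scale, with 95% intervals from limma. Circles show TG against its WT pair and squares show het against its WT pair. Every TG interval crosses 0, while the het intervals of Lcn2 (0.62 to 2.44), Hp (0.07 to 0.73) and Apcs (0.04 to 0.61) do not, before any adjustment over genes.

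Whether the genotypes differed from each other was tested as the TG effect minus the het effect, each against its own WT pair. No member passed that test, where limma called 51 of 11754 genes (0.434%), edgeR 44 (0.374%) and DESeq2 371 (3.16%), and neither of the other tools called a member. At an unadjusted p under 0.05 limma selected 2 members, Lcn2 and Orm2, where it selected 16.7% of all genes. The difference was −2.94 for Lcn2 (95% interval −5.21 to −0.68, limma adjusted p = 0.22) and −0.96 for Orm2 (−1.80 to −0.11, limma adjusted p = 0.257). It was −2.55 for Saa1 (limma adjusted p = 0.308) and −2.66 for Saa2 (limma adjusted p = 0.347), with intervals that include 0. For the other 6 members it ran from −0.32 (Hp) to 0.48 (Apcs), with limma adjusted p of 0.381 or more. The value for Apcs was 0.02 without the second WT library of the TG table and 0.94 without the first. Counting libraries, 3 members lay below WT in TG livers and above WT in het livers without overlap, as 7.86% of all genes did, and the opposite arrangement, found for 7.23% of all genes, occurred in 0 members.

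Other acute phase genes lay above WT more often than below in TG livers and were mixed in het livers. Whether each of them rises or falls in inflammation was not checked. Of 36 such genes, 35 were listed in each table, and the missing one was A2m. In TG livers 25 lay above WT and 10 below, where 50.1% of all genes lay above, with 0 of them called by limma and a median log2 difference of 0.21. The 3 of smallest p were Itih3, an inter-alpha-inhibitor heavy chain that stabilises hyaluronan (1.00, limma adjusted p = 0.445), Serpina3n, a serine protease inhibitor (0.70, 0.518), and the coagulation factor gene F8 (−0.28, 0.568). Itih3 stood at 32849 and 42437 normalised reads in TG livers, against 20547 and 17007 in WT livers, a 2.0-fold ratio of means without overlap.

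In het livers 14 of these genes lay above WT and 21 below, where 49.8% of all genes lay above, with 0 called by limma and a median of −0.04. At an unadjusted p under 0.05 limma selected 6 of them as higher and 5 as lower. Those of smallest p were the protease inhibitor genes Mug1 (−0.71, limma adjusted p = 0.056), Serpina1a (−0.53, 0.103) and Serpinf2 (−0.45, 0.111). Mug1, murinoglobulin, stood at 16303 and 19395 normalised reads in het livers, against 31565 and 26845 in WT livers, with no overlap. Lbp, Lrg1 and Cd14, named after their values were seen, lay above WT without overlap in het livers, with log2 differences of 0.47, 0.59 and 0.79 (limma adjusted p = 0.118, 0.175 and 0.146). In the whole list 8 genes lay above WT without overlap and 14 lay below, where 24.3% and 23.7% of all genes did.

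Negative acute phase genes encode plasma proteins whose synthesis drops in inflammation. In TG livers 9 of 12 lay above WT and 3 below, 0 called by limma, with a median of 0.23. Apoa1, whose protein forms the core of high-density lipoprotein, stood at 327630 and 314700 normalised reads in TG livers, against 103440 and 126990 in WT livers (log2 difference 1.49, limma adjusted p = 0.296). Serpina7, thyroxine-binding globulin, stood at 848 and 786 normalised reads in TG livers, against 377 and 365 in WT livers (1.14, limma adjusted p = 0.142). Neither gene overlapped WT, and Ahsg, fetuin-A, came next by p (0.44, limma adjusted p = 0.655).

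In het livers 3 of the 12 negative acute phase genes lay above WT and 9 below, 0 called by limma, with a median of −0.14. Igfals, a carrier of insulin-like growth factors, Ahsg and Serpina6, corticosteroid-binding globulin, had the smallest p, with log2 differences of −0.36, −0.54 and −0.42 (limma adjusted p = 0.182, 0.212 and 0.338). Ahsg stood at 72210 and 90789 normalised reads in het livers, against 132320 and 104170 in WT livers, with no overlap.

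**Figure D4:**
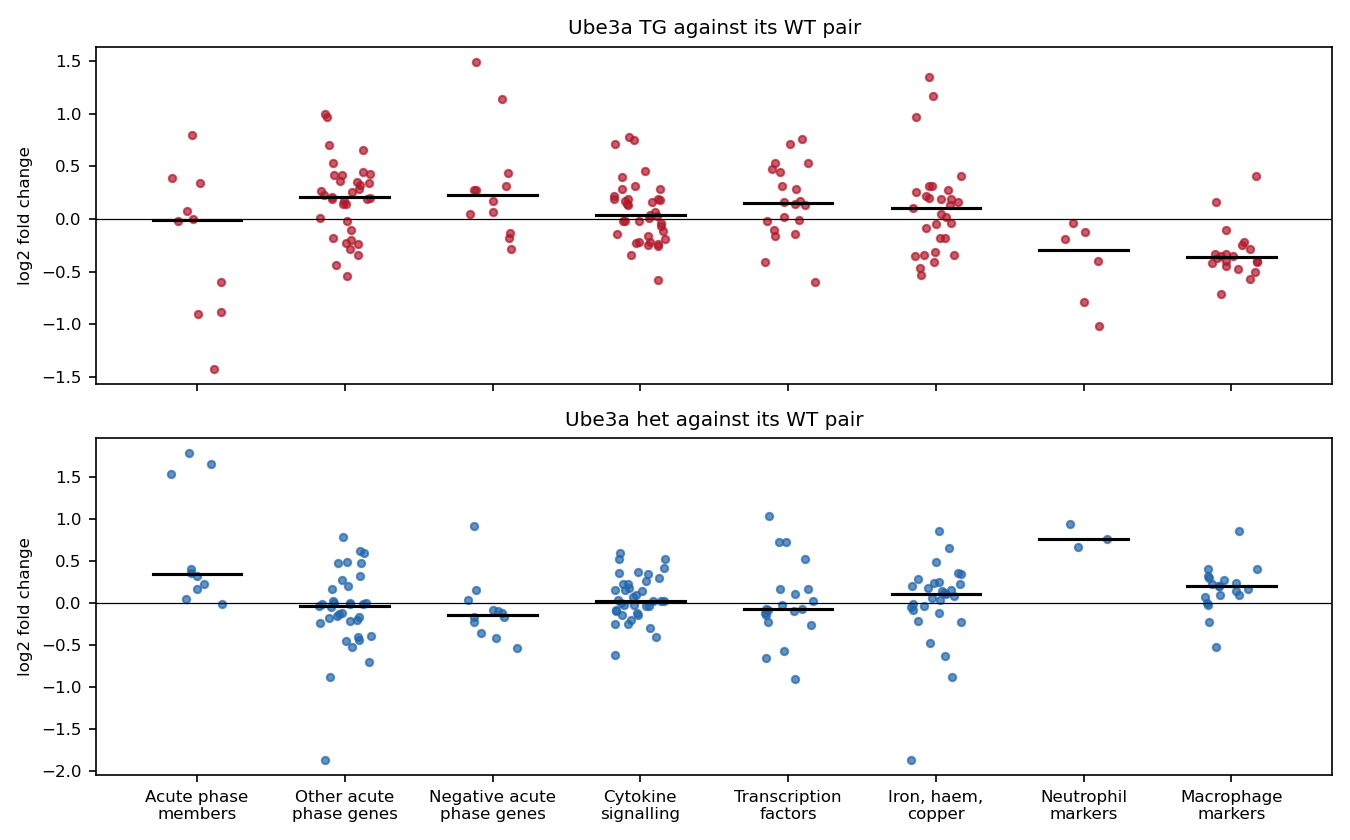
Log2 difference between mutant and WT for each gene of the acute phase list and of 7 related lists, TG above and het below. Points are genes and bars are list medians, which for the 10 acute phase genes are −0.01 in TG and 0.34 in het. The TG panel holds Lcn2, Saa1 and Saa2 as its lowest acute phase points, and the het panel holds the same genes as its highest.

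The cytokine signalling genes upstream of this response showed no common direction. Il6 and Tnf were not listed in either table. Of the listed genes of this group, 21 of 38 lay above WT in TG livers, 0 called by limma, with Nfkbiz (0.75), Il1rap (0.71) and the STAT3 feedback inhibitor Socs3 (0.78) of smallest p (limma adjusted p = 0.518 for each). Socs3 stood at 388 and 330 normalised reads in TG livers, against 247 and 175 in WT livers. In het livers 22 of 37 lay above WT, and 1 passed the limma test. That gene was Lifr, the receptor chain for leukaemia inhibitory factor, which fell to 2464 and 2781 normalised reads in het livers, against 3777 and 4304 in WT livers (log2 difference −0.62, limma adjusted p = 0.0442). Without any 1 of the 4 libraries that call was lost (limma adjusted p of 0.0764 to 0.233), as it was with no robust estimates (0.0608), with a minimum mean CPM of 5 (0.05002) and with all 8 libraries fitted together (0.579). The phosphatase genes Ptpn1 (0.42, limma adjusted p = 0.103) and Ptpn11 (0.30, 0.182) followed it.

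Among 20 transcription factor genes of the response, 13 lay above WT in TG livers and 8 in het livers, 0 called by limma in either, with medians of 0.15 and −0.07. Those of smallest p in TG livers were Onecut1 (0.76), Nr5a2 (0.53) and Cebpg (0.53), with limma adjusted p of 0.348, 0.49 and 0.526. In het livers they were Cebpd (1.04), Foxa1 (−0.58) and Nr1h4 (−0.23), with limma adjusted p of 0.227, 0.267 and 0.332. Cebpd, the C/EBP factor most readily induced by interleukin-6, stood at 158 and 124 normalised reads in het livers, against 48.8 and 93.3 in WT livers, without overlap. In TG livers Cebpd stood at 201 and 335 normalised reads, against 195 and 337 in WT livers, which overlapped almost entirely.

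Iron, haem and copper genes, which share the cargo of Hp, Hpx, Lcn2 and Cp, were listed in 29 of 30 cases in each table, and 17 lay above WT in TG livers and 18 in het livers, 0 called by limma. Hamp, which encodes the iron hormone hepcidin, stood at 24408 and 40199 normalised reads in TG livers, against 10947 and 23214 in WT livers (log2 difference 0.97, limma adjusted p = 0.585). In het livers it stood at 5044 and 1028 normalised reads, against 9366 and 7385 in WT livers (−1.87, limma adjusted p = 0.552). Hamp thus lay above WT in TG livers and below WT in het livers without overlap, the reverse of Saa1, Saa2 and Lcn2. Id1, a target of the same bone morphogenetic protein signal, was higher in TG livers at 976 and 783 normalised reads, against 323 and 362 in WT livers (1.35, limma adjusted p = 0.166), and the ferritin gene Ftl1 followed Id1 and Hamp by p there (−0.46, 0.595). In het livers Cd163, the macrophage receptor for haptoglobin bound to haemoglobin, stood at 203 and 202 normalised reads, against 132 and 95.3 in WT livers (0.85, limma adjusted p = 0.0678), followed by the iron exporter gene Slc40a1 (0.35, 0.143) and the haem oxygenase gene Hmox1 (0.65, 0.186).

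By count of genes, Kupffer cell, neutrophil and endothelial markers lay mostly on the same side of WT as Lcn2 in both tables. By that count lymphocyte markers in het livers and mesothelial markers in both tables did not, though mesothelial sums in TG livers lay below WT. In a piece of liver, fewer cells of a type and less RNA per cell cannot be told apart. Kupffer cell and macrophage markers lay below WT for 18 of 20 genes in TG livers, with summed levels of 28367 and 37262 normalised reads in TG, against 44395 and 42100 in WT. In het livers they lay above WT for 16 of 19 genes, with sums of 11989 and 16333 in het, against 10084 and 14318 in WT, which overlap. Limma called none of these in either table.

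Neutrophil markers were scarce, and 9 of the 15, including the defining Ly6g, Mpo, Elane, Cxcr2 and Ltf, were listed in neither table. The 6 listed in the TG table all lay below WT, with sums of 272 and 234 normalised reads in TG, against 288 and 324 in WT. The 3 listed in the het table all lay above WT, with sums of 86.2 and 114 in het, against 44.9 and 74.8 in WT. S100a9, a calgranulin gene of neutrophils, stood at 31.2 and 14.0 normalised reads in TG livers, against 32.0 and 59.6 in WT livers. In het livers it stood at 19.0 and 28.8 normalised reads, against 7.80 and 17.4 in WT livers. The het table lists no gene with a mean below 17.8, and both WT values of S100a9 there lay under that. Such a gene is listed only where its het values are high, so the count above WT was partly set by the listing.

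Endothelial markers lay below WT for 16 of 16 genes in TG livers and above WT for 16 of 16 in het livers, where Lyve1 (0.92, limma adjusted p = 0.0403) and Gpr182 (0.67, 0.0442) passed the test. The call of Gpr182 was lost without any 1 of the 4 libraries (limma adjusted p of 0.0858 to 0.224), and that of Lyve1 without either het library or the first WT library (0.119 to 0.197). With no robust estimates both were lost (limma adjusted p of 0.0675 for Gpr182 and 0.0631 for Lyve1), as they were with all 8 libraries fitted together (0.17 and 0.511). Gpr182 was also not called by DESeq2 (adjusted p = 0.0547) or with a minimum mean CPM of 5 (limma adjusted p = 0.05002). For the TG effect minus the het effect, Gpr182 passed the limma test (−1.07, adjusted p = 0.0457). That call was lost with limma-voom (adjusted p = 0.0707), and in limma with no robust estimates (0.0564) or a replicate block (0.0617). Endothelial sums were 23498 and 23548 normalised reads in TG, against 27701 and 28173 in WT. In het they were 8314 and 8448, against 6896 and 7312 in WT. Hepatocyte markers summed to 5315100 and 5084800 normalised reads in TG, against 5038200 and 4263000 in WT, and to 1518000 and 1687000 in het, against 1868900 and 1633000 in WT. The part of these markers in the values of Lcn2, Saa1 and Saa2 was not tested.

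Which genes followed Saa2, Lcn2 and Orm2 most closely was described by Pearson's r over the 8 libraries, each table centred on its own mean, among 8980 genes. These are the highest of many correlations over few points that share their library and table, so they carry no p. Saa2 was followed by Saa1 (r = 0.977), then by Hdhd2, Rfc1, Rxrg and St6galnac6 (0.968 to 0.939). The log2 differences of those 4 stayed between −0.15 and −0.04 in TG livers and 0.12 and 0.28 in het livers, far smaller than those of the Saa genes. Lcn2 was followed by Pitrm1 (r = 0.987), Grn (0.983), Msr1 (0.980), Arel1 (0.979) and Ptrhd1 (0.978), of which Grn encodes progranulin and Msr1 the macrophage scavenger receptor. Their log2 differences lay between −0.40 and −0.22 in TG livers and between 0.17 and 0.36 in het livers. Orm2 was followed by Dph1 (r = 0.988), Rps19-ps3 (0.983), Ctsb (0.962), Ftl1 (0.958) and Inpp5d (0.954), of which Ctsb encodes the lysosomal protease cathepsin B and Ftl1 ferritin light chain. Without the 2 libraries farthest from the median, r remained 0.869 or more for all 15 genes. The genes were picked by their r over these same libraries, so that value is no separate check.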

How the data were processed

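Liver RNA-seq of 8 libraries in 4 groups was used, extracted with TRIzol and prepared with TruSeq reagents per the labels' protocols. Subread 1.5.2, featureCounts, DESeq2 and mm10/GRCm38 are named, with no roles, per the submitters' processing notes. Neither the annotation nor the strand setting of the counting is given in the sources used here. Signal values as deposited are gene counts that the authors had divided by a factor for each library. In each library 100% of the values came out as whole reads (tolerance 0.001 of a read), and reads were recovered on that basis; RPKM was computed from them. The tables list no gene with a mean below 11.2 (TG) or 17.8 (het) normalised reads, were normalised separately, and were each tested alone. Date-like entries in place of gene names, 20 in TG and 18 in het, stayed in the fits of each table alone. They were left out of the fits that join the tables.

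The 10 members and all gene lists were chosen with earlier results of these data known. Values were taken to log2(value + 1), a scale that understates the change of low genes, and tested with limma 3.58.1 (trend and robust) in R 4.3.3 over the whole table, with a threshold of 0.05 on the p-value after Benjamini-Hochberg adjustment. The difference of the effects used all 8 libraries. Added tests on recovered reads were edgeR 4.0.16 (quasi-likelihood), which called 0 genes in TG, 182 in het and 44 for the difference, and DESeq2 1.42.0. Other alternatives were limma-voom, pseudocounts of 0.5 and 5, minimum mean CPM of 1 and 5, TMM scaling, scaling without the 20 most abundant genes, no robust estimates, all 8 libraries in 1 fit, a replicate block, and omission of each library in turn. Named genes were every member, the called members of other lists, the 3 of smallest p in 5 lists of related genes, the 5 genes most like Saa2, Lcn2 and Orm2 (mean CPM of at least 5, predicted genes left out) and Ube3a. S100a9, Hamp in het, the second table's values of genes named in 1, and genes marked so were named after their values were seen. Gene positions and transcripts came from GENCODE M21 on GRCm38, the longest principal transcript giving the length, and promoters from RefSeq. No pair of replicates agreed within sampling noise. The limma fit of each table was tested on simulated data, with a spread that was set and not taken from these libraries. The edgeR, DESeq2 and limma-voom fits were not tested so.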

Additional observations from a re-analysis of the deposited data

Results flagged for a closer look

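Saa1, Saa2 and Lcn2 stood out because their effects ran in opposite directions in the 2 genotypes: both TG libraries lay below both WT libraries of their table, and both het libraries lay above both of theirs. The TG effect minus the het effect was −2.55 for Saa1, −2.66 for Saa2 and −2.94 for Lcn2 on the log2 scale. The limma test of that difference did not call any of them, with adjusted p of 0.308, 0.347 and 0.22. Leaving out 1 library gave differences of −3.23 to −1.88 for Saa1, −3.62 to −1.70 for Saa2 and −3.75 to −2.14 for Lcn2. The same arrangement of libraries was found for 924 of the 11754 genes listed in both tables (7.86%), and for 3 of the 10 acute phase genes. Saa1 and Saa2 followed each other closely (r = 0.977) and may exchange reads, so they are not separate cases. Their second TG and second WT libraries were nearly level, at 2011 against 2014 for Saa1 and 953 against 975 for Saa2. The opposite arrangement, above WT in TG and below WT in het, was found for 850 genes (7.23%).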

How the results depend on the processing

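With 2 libraries a group, single libraries moved many values. The members' median log2 difference in TG was −0.04 when scaled without the 20 most abundant genes and −0.21 to −0.06 on leaving out a library, and in het it was 0.25 to 0.38. Genes called in TG numbered 188 with DESeq2, 25 when all 8 libraries were fitted together and 0 to 146 on leaving out a library. In het they numbered 289 with DESeq2, 93 with no robust estimates, 0 in that joint fit and 61 to 173 on leaving out a library. For the difference they numbered 371 with DESeq2, 30 with limma-voom and 5 to 643 on leaving out a library. Members called in het numbered 1 with DESeq2, and that gene was Lcn2. A fit without 1 library leaves 1 library in a group, so its calls do not measure the spread of that group. Sign turned, without a call, for Orm1 in TG (0.01 with edgeR and DESeq2, −0.40 to 0.36 on leaving out a library), Hpx in TG (0.00 with DESeq2, −0.07 to 0.07), Hp in TG (−0.35 to 0.51), Crp in het (−0.07 to 0.02), Cp in het (−0.10 to 0.19), and for the difference in Hp (−0.75 to 0.11) and Orm1 (−0.62 to 0.14). The cause was not tested. Deviations of libraries with the same number correlated at 0.11 in TG and −0.04 in het, and the labels name no shared animal, batch or day, so the numbers were not used to pair libraries. With the number as a replicate block, limma called 0 genes in TG, 138 in het and 46 for the difference, and no member.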

Other observations

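Saa1, Saa2, Orm1 and Orm2 have close relatives beside them on the same chromosomes, whose values were looked at after those of the members. Saa4, a constitutive serum amyloid A gene of liver, stood at 9492 and 15812 normalised reads in TG livers, against 16822 and 18726 in WT livers, without overlap (log2 difference −0.54, limma adjusted p = 0.601). In het livers it stood at 7975 and 5528 normalised reads, against 5284 and 5717 in WT livers, with overlap (0.27, limma adjusted p = 0.526). Saa3, which in mice is made mainly by macrophages and adipocytes, overlapped WT in both tables, with log2 differences of −0.24 in TG and −0.41 in het. Orm3 also overlapped WT in both, at −0.44 in TG and −0.18 in het.

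Markers of other cells were few in the het table. Lymphocyte markers lay below WT for 9 of 13 genes in TG and 3 of 3 in het, and biliary markers for 4 of 7 and 1 of 2. Mesothelial markers lay above WT for 5 of 7 genes in TG and 1 of 4 in het. Their sums in TG livers lay below WT, at 8179 and 7728 normalised reads, against 9569 and 9406. In het livers the sums overlapped, at 3268 and 2945 normalised reads, against 2698 and 2985.5 in WT livers. Upk3b fell to 14.7 and 16.1 normalised reads in het livers, against 79.0 and 73.8 in WT livers (limma adjusted p = 0.00891). Gpm6a fell to 8.62 and 10.4 there, against 33.2 and 47.2 (limma adjusted p = 0.0442). The call of Upk3b was lost without the first WT library (limma adjusted p = 0.0672), and that of Gpm6a without any 1 of the 4 libraries (0.0922 to 0.16) or with no robust estimates (0.0673). Neither was called with all 8 libraries fitted together (0.282 for Upk3b and 0.229 for Gpm6a). Of 6 adipocyte markers only Cfd was listed, in the het table, at 22.4 and 54.1 normalised reads in het livers, against 1.95 and 13.3 in WT livers. Both WT values lay under 17.8, the lowest mean listed in that table. Cfd was thus listed only through its het libraries, and its direction was set in part by the listing. Upk3b and Gpm6a, with het values under 17.8, were listed through their WT libraries.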
